A study of Mus musculus with 8 samples.

Results

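Both peak lists from mouse livers given a C/EBPα vector held weak sites that no peak list from another group held. These weaker overexpression-only sites numbered 9833 of the 113353 sites found in the 8 peak lists, or 8.67%. They were selected on the peak lists themselves, so nothing is read from their number. The 2 lists from livers given a C/EBPα vector were also the longest of the 8. With lists of equal length, 5415 such sites were found. A site had to be called in both lists from livers given a C/EBPα vector and in none of the other 6 lists. Its peak also had to rank in the lower 50% of at least 1 of the 2 C/EBPα vector lists. A further 2816 overexpression-only sites ranked at the 50th percentile or above in both lists and are called strong here. The weaker sites lay farther from constitutive sites than the strong ones, their peak centres agreed less closely between replicates, and a larger share of them was on chromosome X. These traits also changed with peak strength, in the same direction, among sites that both C/EBPα vector lists and at least 1 other list called. They are thus not particular to the weaker overexpression-only sites.

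C/EBPα is a basic leucine zipper transcription factor that binds DNA as a dimer and acts in the differentiation of hepatocytes, fat cells and myeloid cells. In liver it acts at genes of gluconeogenesis, lipid metabolism and secreted plasma proteins. Tribbles-1, the product of Trib1, is a pseudokinase that brings C/EBPα to the ubiquitin ligase COP1 for degradation. In a ChIP-seq experiment, crosslinked chromatin is pulled down with an antibody and sequenced, and a peak is a place where sequence tags pile up. A weak peak can reflect brief or infrequent binding in many cells, or binding in a small number of cells. Peak lists of bulk liver cannot tell these apart.

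The 8 libraries, for which 1 antibody to C/EBPα was used, came from livers of mice 8 to 10 weeks old, labelled C57B/6 and fasted for 4 hours. AAV_Cebpa livers (n = 2 libraries) came from wild-type mice given 1e12 gc (genome copies) of an adeno-associated virus coding for C/EBPα, and AAV_Null livers (n = 2) from wild-type mice given the same dose of an empty virus. Trib1_WT (n = 2) and Trib1_LSKO (n = 2) livers came from Trib1 flox/flox mice given 1.5e11 gc of an empty virus or of a virus coding for Cre recombinase. Every virus was injected intraperitoneally, so the control mice also received a viral vector. The promoters that drive Cre and C/EBPα, and whether replicates were separate animals, are not stated in the labels, so p-values measure only the spread between these libraries, which may be technical. Peak lists hold no RNA or protein levels, so neither the amount of C/EBPα nor the loss of Trib1 nor the cell makeup of the tissue was checked.

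The AAV_Cebpa lists were the longest, with 59564 and 80394 peaks, against 46348 to 54691 in the other 6. Their libraries were 1.85 and 2.27 times as deep as the shallowest one, AAV_Null replicate 1. The other 5 were 1.14 to 1.93 times as deep. The floxed livers had 9 to 14 peaks on chromosome Y in each list, and the AAV_Null and AAV_Cebpa lists had 0.

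The weaker sites were placed low in AAV_Cebpa replicate 1 and higher in the longer list of replicate 2, where most still ranked below 50. Their percentile within the list, where 100 is the strongest peak, had a median of 20.8 (interquartile range 9.14 to 33.3) in replicate 1 and of 36.7 (23.7 to 50.6) in replicate 2. Nearly every one ranked below 50 in replicate 1 (9810 sites, 99.8%), and 7296 (74.2%) did so in replicate 2. In both lists together, 7273 sites (74.0%) ranked below 50, and 671 (6.82%) ranked below 10. These values chose the sites and are given as a description.

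The deposited signal of a peak was a whole multiple of 1 step in each library, as when tags are scaled to a library total. It had a median of 9.5 in replicate 1 and 14.8 in replicate 2 at the weaker sites. In sequence tags this was a median of 23 (range 11 to 56) and 44 (range 13 to 134). The weakest peak in any of the other 6 lists had a signal of 4.3 to 6.1, depending on the list. At 8412 of the weaker sites (85.5%, 95% exact binomial interval 84.8% to 86.2%) both AAV_Cebpa peaks were at or above 6.1, and at 2831 (28.8%) both reached at least 2 times that level. The rule used this signal, and nothing is read from these shares. The order of the sites was similar in both replicates. Spearman's rho between the 2 percentiles was 0.81 over the 9833 sites and 0.78 over the 2816 strong ones. It was 0.90 over all overexpression-only sites and 0.95 over sites called in all 8 lists. The rule cut the weaker and strong sites on these same percentiles, so their rho values cannot be compared with each other or with the rest. All are descriptions over sites that share the same pair of libraries.

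**Figure D1:**
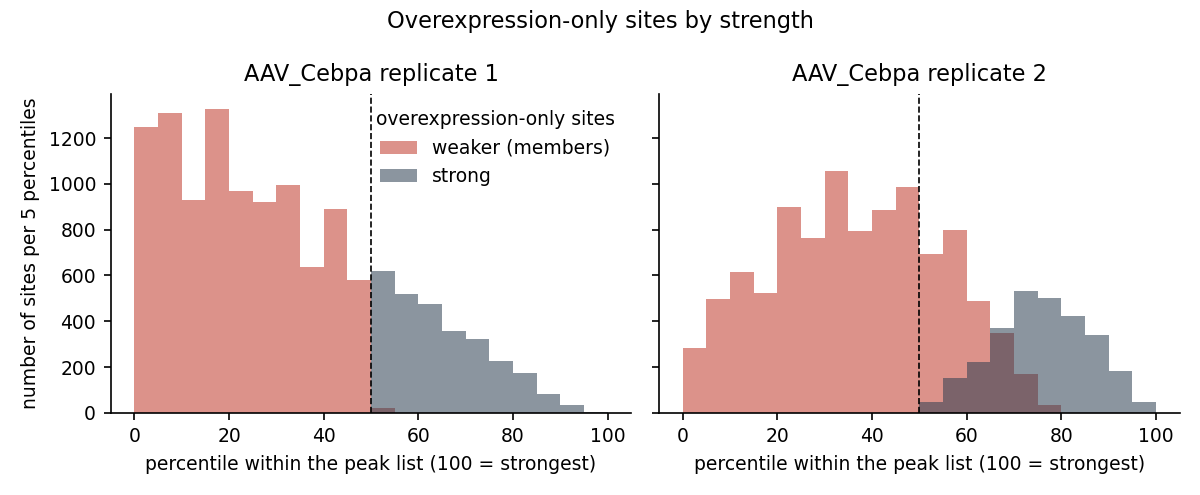
Number of overexpression-only sites (vertical axis, per 5 percentiles) by percentile of the peak in AAV_Cebpa replicate 1 (left) and replicate 2 (right), for the 9833 weaker sites (red) and the 2816 strong sites (grey), with a dashed line at the limit of 50. The weaker sites end near 50 in replicate 1, where the median was 20.8, and reach 80.2 in replicate 2, where it was 36.7.

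Individual sites show the range, in coordinates of build mm9. The 5 strongest by mean percentile were chr3:122619306-122619517, chr12:16279621-16279834, chr14:101985364-101985575, chr3:17947907-17948121 and chr5:102371671-102371879. Each had a percentile of 48.3 or 49.4 in replicate 1, just under the limit, and of 78.1 to 80.2 in replicate 2. The first of them held 43 tags in replicate 1 and 134 in replicate 2, the highest of any weaker site in that list. It lay 20971 bp from the nearest site called in all 8 lists, while chr12:16279621-16279834 lay 114732 bp from one. All 5 thus ranked well above the middle of the list in replicate 2 and at its middle in replicate 1.

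Typical sites, those closest to the median of the mean percentile (28.5), had percentiles of 24.0 and 32.9 and held 25 and 40 tags. They were chr1:154834115-154834440, chr1:160716531-160716734, chr2:7163376-7163585, chr3:131555003-131555255 and chr9:31940312-31940520. Their surroundings differed although their strength was equal. The site on chromosome 9 had a site of all 8 lists 810 bp away, and the site on chromosome 3 had none within 191959 bp. In the latter, the peak centres of the replicates were 53 bp apart, and at chr1:160716531-160716734 they were 4 bp apart.

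The 5 weakest sites held 12 and 13 tags, at percentiles of 0.62 and 0.26. They were chr1:84155997-84156250, chr4:95280853-95281072, chr8:25590253-25590571, chr10:5379513-5379737 and chr10:121997461-121997720, with centres 20 to 119 bp apart. Their nearest sites of all 8 lists were 21938 to 34611 bp away. The sites at the limit show how narrow the selection was. Just inside it, chr8:95813394-95813595 had percentiles of 51.4 and 49.9 and chr8:120147578-120147796 had 52.4 and 49.9. Just outside, chr1:24024740-24024944 had 50.4 and 61.4, and chr1:35368478-35368722 had 50.4 and 66.0.

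Sites called in both libraries of 1 group alone were far more numerous for AAV_Cebpa than for the other groups. The same rule read for each group in turn gave 9833 weaker sites for AAV_Cebpa, 1001 for Trib1_WT, 928 for AAV_Null and 447 for Trib1_LSKO. As a share of what both libraries of the group called, this was 17.6%, 2.27%, 2.45% and 1.05%. Weak sites made up 77.7% of the group's own sites in AAV_Cebpa and 89.9% to 93.9% in the other groups. The rule uses the contrast of AAV_Cebpa with AAV_Null, in which 19.5% of all sites (22124 of 113353) were called in both AAV_Cebpa lists and neither AAV_Null list, so nothing is read from the count itself. When every list was reduced to its strongest 46348 peaks, 5415 weaker overexpression-only sites were found in place of 9833.

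Among the sites that both AAV_Cebpa lists called and at least 1 of them ranked below 50, the number of other lists that called them was most often 0 or 6. None of the other 6 lists called 9833 of these weak sites (36.6%), 1830 (6.82%) were called in 3, and 5858 (21.8%) were called in all 6. Of the sites at 50 or above in both lists, 9.69% were called in no other list and 63.5% in all 6. The weak sites that missed the selection by a single list were 2514 in number. That list was Trib1_LSKO replicate 1 in 703 cases, Trib1_LSKO replicate 2 in 528, Trib1_WT replicate 1 in 414 and Trib1_WT replicate 2 in 325. It was AAV_Null replicate 1 in 248 cases and replicate 2 in 296. The 2 Trib1_LSKO lists had the most of these near misses and the 2 AAV_Null lists the fewest. Of these 6 lists, those of AAV_Null were also the shortest (46348 and 49052 peaks) and those of Trib1_WT the longest (53327 and 54691). The counts were not scaled to list length, and the same split was not made for strong sites. The rule itself uses these calls, so the numbers are a description with no test.

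**Figure D2:**
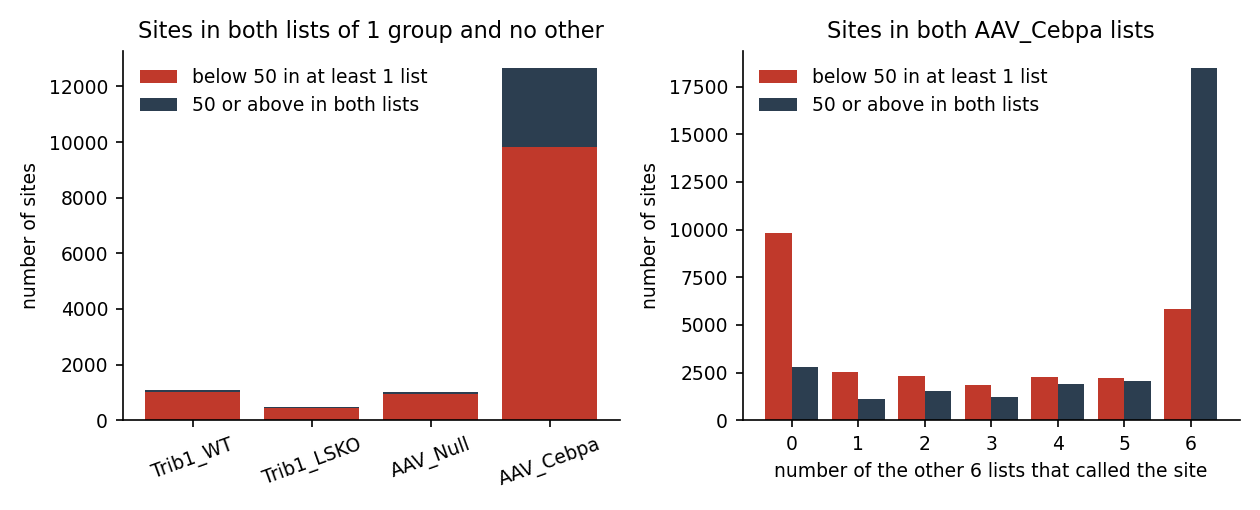
Left, number of sites called in both libraries of 1 group and in no other list, with those below the 50th percentile in at least 1 of the lists in red and the others in dark grey; right, number of sites called in both AAV_Cebpa lists by how many of the other 6 lists called them. The red bar of AAV_Cebpa (9833) stands above those of the other groups (447 to 1001), and the red bars on the right are highest at 0 and 6 lists.

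The weaker sites lay farther from constitutive sites than strong overexpression-only sites did. The median distance to the nearest site called in all 8 lists was 26266 bp (interquartile range 9107 to 72858 bp), against 10846.5 bp for strong overexpression-only sites and 15936 bp over all sites. Such a neighbour lay within 10000 bp of 2655 weaker sites (27.0%, 95% exact binomial interval 26.1% to 27.9%). The share was 48.4% (46.5% to 50.2%) for strong overexpression-only sites, 48.6% for constitutive sites themselves and 38.8% over all sites. Other weak sites gave closer values. Sites below 50 that 1 to 6 other lists also called had shares of 30.9% to 37.15%, and sites found in a single list had 27.9% and 28.1% for the Trib1_WT lists and 29.0% to 43.8% for the other 6 lists. A low share was therefore also found among other weak sites, those of a single Trib1_WT list included. More than 50000 bp separated 3323 weaker sites (33.8%) from any constitutive site, against 20.2% of the strong sites. Intervals here cover counting of sites only, and sites of the same libraries are not replicates.

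Weaker sites had fewer close neighbours than strong sites or all sites when every site was counted, but not when only weaker sites were counted. Another site of any list lay within 1000 bp of 1788 (18.2%, 17.43% to 18.96%), against 27.9% of the strong sites and 25.3% of all sites. The median distance from a weaker site to the next one of its kind was 43533 bp. From a strong site to the nearest weaker site it was 36219 bp, and over all sites 56240 bp. Another weaker site lay within 10000 bp of 19.9% of the weaker sites, 19.7% of the strong sites and 13.9% of all sites. Most stood alone. With gaps of at most 10000 bp allowed, 7879 (80.1%) had no other weaker site beside them. A further 1678 stood in 839 pairs, 225 in 75 groups of 3, 36 in 9 groups of 4 and 15 in 3 groups of 5. The groups of 5, which were chosen after the values were seen, were chr3:126352374-126363878, chr5:32728148-32740844 and chr15:67241600-67260213. The first and last of them had 1 further site in between, which on chromosome 15 was a constitutive one, and the group on chromosome 5 had none. Its 5 sites had mean percentiles of 6.86 to 31.3.

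At the scale of megabases the weaker sites followed the other sites loosely. They occurred in 2153 of the 2543 bins of 1000000 bp that held any site. Spearman's rho between the number of weaker sites and the number of constitutive sites per bin was 0.62 over the 2543 bins, a description of bins that also share mappable sequence and gene content. The richest bin, on chromosome 6 from 17000001 to 18000000, held 22 weaker sites, 3 strong overexpression-only sites and 22 constitutive ones, where the median bin held 3, 1 and 7. The 398 bins with no constitutive site held 310 of the weaker sites (3.15%), 1.31% of the strong sites and 2.24% of all sites.

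Distance from constitutive sites changed with strength inside the overexpression-only set. Among those with a mean percentile under 10, 12.6% (95% exact binomial interval 10.7% to 14.7%) had a constitutive site within 10000 bp. The share was 23.9% (22.1% to 25.8%) at 20 to 30, 37.7% (35.4% to 40.1%) at 40 to 50 and 51.4% (47.8% to 55.05%) at 70 to 80. Sites in both AAV_Cebpa lists that at least 1 other list called went the same way, with 18.5% (16.0% to 21.2%), 28.3% (26.7% to 29.97%), 40.3% (38.9% to 41.8%) and 50.7% (49.5% to 52.0%) in the same 4 ranges. In these 4 ranges the intervals of both kinds of site were apart under 10 and at 20 to 30, with the lower share in overexpression-only sites, and overlapped at 40 to 50 and at 70 to 80. They were also narrowly apart at 30 to 40, with 30.4% (28.34% to 32.56%) and 34.1% (32.61% to 35.66%). At 50 to 60 they were apart with 41.4% (38.9% to 44.0%) and 46.0% (44.6% to 47.4%), and at 10 to 20 they overlapped. Strength was used by the rule, and the distance was not.

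Position inside the site was also less exact where the peaks were weak. The peak centres of the 2 AAV_Cebpa replicates were a median of 17 bp apart at the weaker sites (interquartile range 8 to 32 bp), 12 bp at strong overexpression-only sites and 10 bp at constitutive sites. They lay within 25 bp of each other at 6471 weaker sites (65.8%, 64.9% to 66.8%), at 80.5% (79.0% to 82.0%) of the strong ones and at 85.4% of the constitutive ones. A distance of at most 50 bp was found for 89.95%, 96.4% and 96.9%. Sites below 50 that 1 to 6 other lists also called had 70.2% to 74.3% within 25 bp, between the weaker and strong sites. In overexpression-only sites the share within 25 bp rose from 57.5% at a mean percentile under 10 to 71.0% at 40 to 50 and 81.0% at 60 to 70. It was 59.9%, 76.3% and 84.1% in the same ranges for sites that at least 1 other list called. Weaker sites held fewer tags, and the part of tag number in their looser centres was not tested. The joined weaker sites were 217 bp wide in the median and at most 385 bp.

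**Figure D3:**
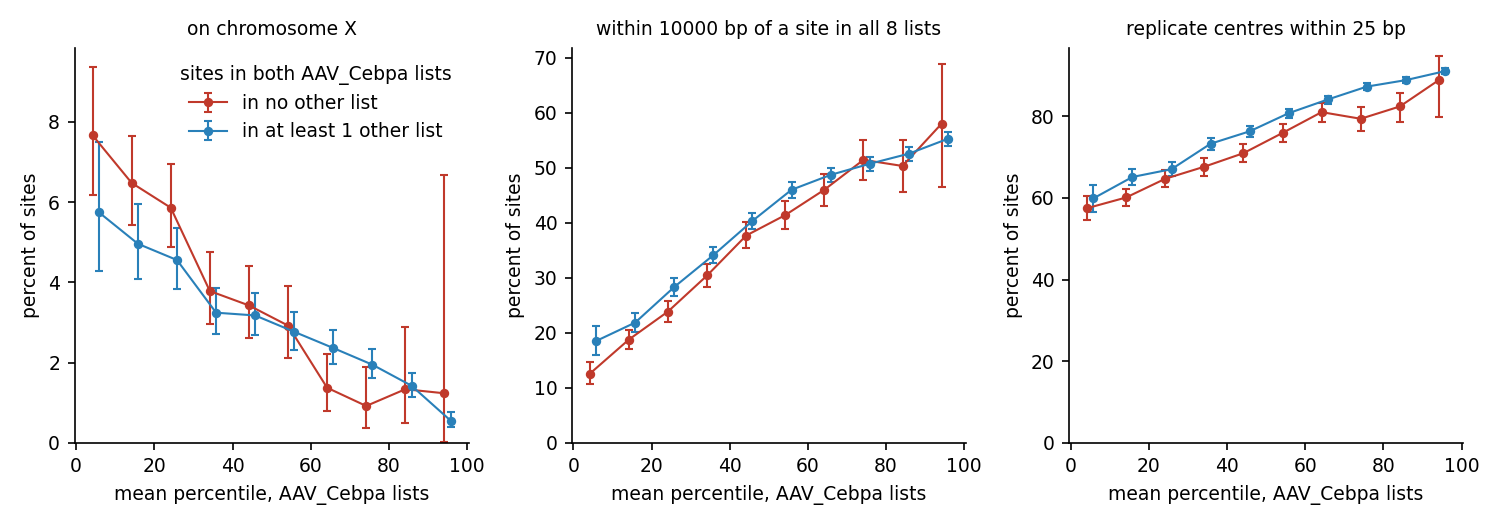
Percent of sites on chromosome X (left), within 10000 bp of a site called in all 8 lists (middle) and with replicate peak centres within 25 bp (right), by mean percentile in the 2 AAV_Cebpa lists in steps of 10; red points are overexpression-only sites, blue points are sites that at least 1 other list called, and bars are 95% exact binomial intervals. In red, the share on X falls from 7.66% in the weakest range to 0.92% at 70 to 80, and the share near a constitutive site rises from 12.6% to 51.4%.

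Peaks beside the weaker sites were counted in each library. A peak centred within 1000 bp outside the site was found in AAV_Cebpa replicate 1 for 1224 weaker sites (12.4%) and in replicate 2 for 1552 (15.8%). In AAV_Null it was found for 661 (6.72%) and 698 (7.10%). The floxed livers gave 7.67% and 7.88% in Trib1_WT and 7.70% and 8.11% in Trib1_LSKO. Part of the AAV_Cebpa values is fixed by the selection, because the neighbouring peaks include those of other overexpression-only sites, so these values are a description.

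With the peaks of all overexpression-only sites left out, the share was 7.75% and 11.3% in the AAV_Cebpa libraries and stayed at 6.72% and 7.10% in AAV_Null. Replicate 1 then lay among the floxed libraries, and both AAV_Cebpa libraries lay above both AAV_Null libraries. The means were 9.52% ± 2.50 and 6.91% ± 0.27 (SD, n = 2 each), a ratio of 1.38, and the exact two-sided permutation test gave p = 0.33, its smallest value here. The AAV_Cebpa lists were also the longest, and the part of list length was not tested with these peaks left out. No ratio with these peaks left out was computed for strong sites or all sites, so 1.38 has no baseline of its own. With all peaks counted, the ratio was 2.04 at the weaker sites, 1.35 at strong overexpression-only sites and 1.28 over all sites. Within 500 bp it was 1.73 at the weaker sites (4.56% against 2.64%), 0.81 at the strong sites (5.97% against 7.39%) and 1.24 over all sites. Lists of equal length, all peaks counted, gave a difference of 3.94 percentage points at the weaker sites in place of 7.20. Trib1_LSKO and Trib1_WT, at 7.90% ± 0.29 and 7.78% ± 0.15, overlapped (exact two-sided permutation p = 0.667), and the sign of their difference of 0.13 points turned to -0.07 without Trib1_WT replicate 1 and to -0.26 without AAV_Cebpa replicate 1. Peaks of any of the other 6 lists stood within 1000 bp of 1239 weaker sites (12.6%), and the other weaker sites had no control or floxed peak in that range.

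**Figure D4:**
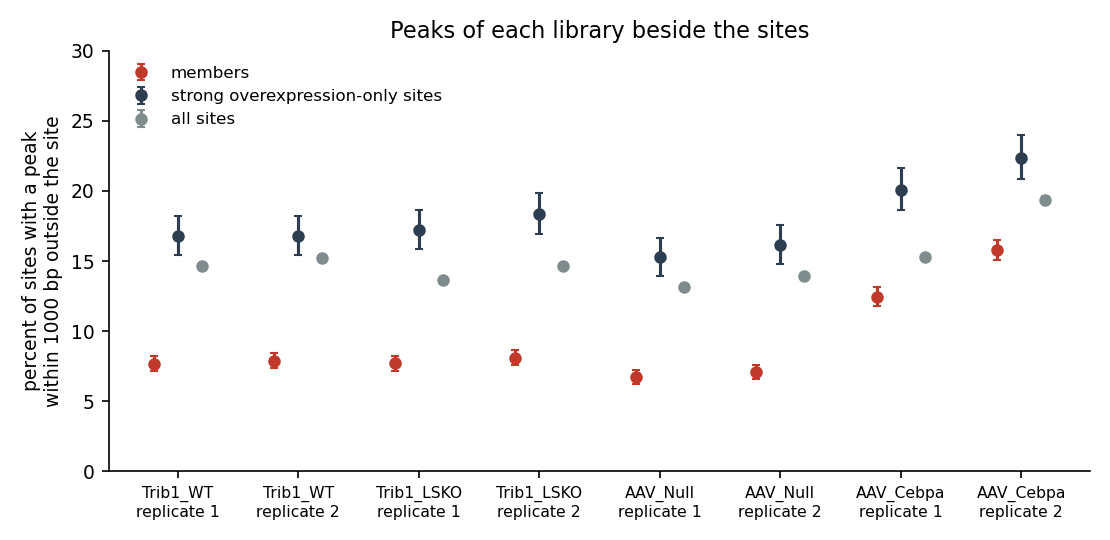
Percent of sites with a peak of each library centred within 1000 bp outside the site, for the 9833 weaker sites (red), the 2816 strong overexpression-only sites (dark grey) and all 113353 sites (light grey), with 95% exact binomial intervals. The weaker sites are between 6.72% and 8.11% in the 6 other libraries and at 12.4% and 15.8% in the AAV_Cebpa libraries, whose peaks include neighbouring overexpression-only sites.

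Chromosome X held a larger share of the weaker sites than of strong, constitutive or all sites. It carried 496 of them, or 5.04% (95% exact binomial interval 4.62% to 5.49%), against 3.00% of all sites, 2.07% of constitutive sites and 1.46% (1.05% to 1.97%) of strong overexpression-only sites. Of the sites on X that both AAV_Cebpa lists called, 31.0% (28.8% to 33.4%) were weaker overexpression-only sites. On the autosomes this proportion ran from 14.7% on chromosome 19 to 19.8% on chromosome 3. Relative to all sites, the share of weaker sites was highest on X (ratio 1.68), followed by chromosomes 18 (1.15) and 3 (1.14), and lowest on chromosomes 17 (0.81), 19 (0.85) and 8 (0.86).

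The share on X changed with strength. It was 7.66% (6.18% to 9.38%) for overexpression-only sites with a mean percentile under 10, 5.86% (4.89% to 6.96%) at 20 to 30, 3.43% (2.60% to 4.42%) at 40 to 50 and 1.37% (0.79% to 2.22%) at 60 to 70. Sites that at least 1 other list called had 5.75% (4.29% to 7.51%), 4.56% (3.84% to 5.36%), 3.17% (2.68% to 3.74%) and 2.36% (1.98% to 2.80%) in the same ranges. The intervals of both kinds of site overlapped in each of these ranges.

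The same was seen in each list by itself. Among peaks below the 50th percentile, X held 2.93% and 3.24% in the Trib1_WT lists and 2.79% and 3.02% in those of Trib1_LSKO. It held 3.25% and 3.39% in AAV_Null, and 4.25% and 4.56% in AAV_Cebpa. Among peaks at 50 or above it held 1.31% to 1.84% in the 8 lists. In every list the weaker peaks were thus richer in X than the stronger ones. With the peaks of the weaker overexpression-only sites left out, the AAV_Cebpa values were 3.85% and 4.31%, still above both AAV_Null values (means of 4.08% ± 0.32 and 3.32% ± 0.09, n = 2 with the SD, and p = 0.33 by exact permutation, the lowest value that can occur). Trib1_LSKO and Trib1_WT overlapped (p = 0.667 in the same exact test).

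The share on X also differed with the use of the floxed lists, which alone had peaks on chromosome Y. The rule uses the calls of the floxed lists, so these values are a description. Of the weak sites called in both AAV_Cebpa lists and neither AAV_Null list, 5.04% were on X when no floxed list called them (the 9833 weaker sites), and 3.14% (2.69% to 3.65%) of 5347 when at least 1 did. If the floxed lists were not used at all, 15180 sites qualified and 4.37% (4.05% to 4.71%) were on X. With lists of equal length the share was 3.01% (2.57% to 3.501%), against 2.27% (2.17% to 2.37%) of all sites formed from those lists. The part of the sex of the animals, which the labels do not give, and of depth in the share on X was not tested.

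**Figure D5:**
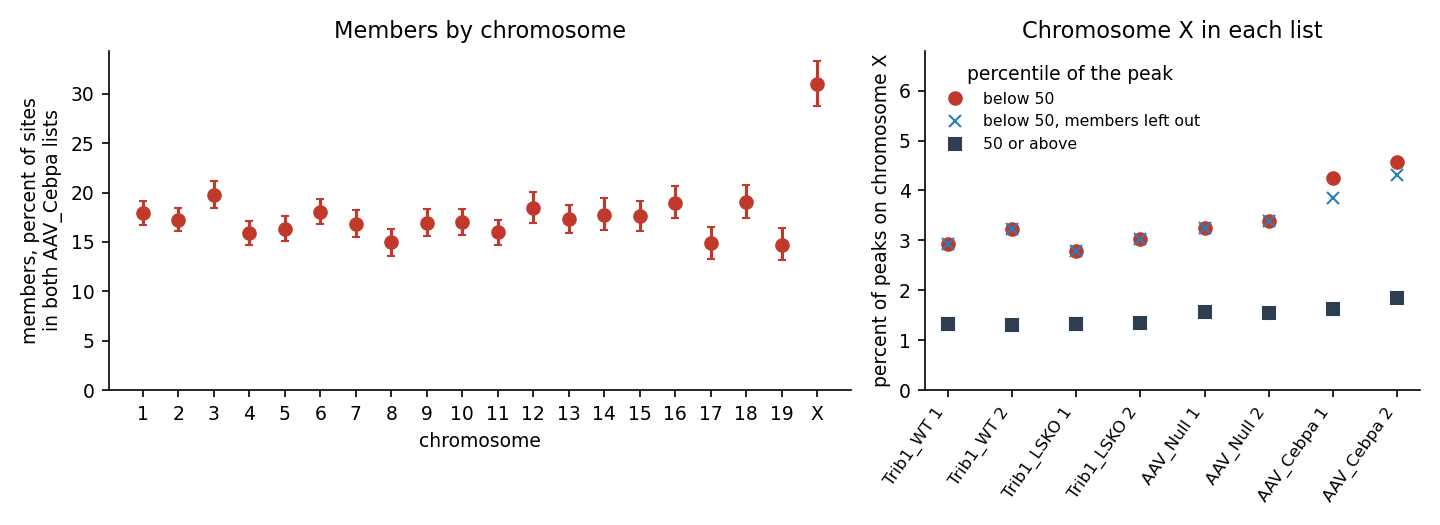
Left, weaker overexpression-only sites as a percent of all sites called in both AAV_Cebpa lists on each chromosome, with 95% exact binomial intervals; right, percent of each library's peaks on chromosome X, for peaks below the 50th percentile (red circles), the same without the weaker overexpression-only sites (blue crosses) and peaks at 50 or above (dark squares). X stands at 31.0% on the left, above the 14.7% to 19.8% of the autosomes, and the AAV_Cebpa lists have the highest values among weak peaks on the right.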

How the data were processed

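Per the labels, C/EBPα ChIP-seq was done on 8 mouse liver samples, 2 in each of 4 groups. The authors deposited 1 list of 200 bp peaks per library with a signal value per peak, and replicates were not pooled. Bowtie, HOMER and build mm9 are named in the submitters' processing notes. Versions, input libraries, thresholds and treatment of duplicates are not stated there. In each list the deposited signal was a whole multiple of 1 step, within 0.051, which gives tags and relative depth.

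Peaks of all lists that overlapped by 1 bp or more were joined into sites. Percentiles are ranks of the signal within a list, with ties at their mean rank. Distances run between midpoints, and coordinates are 1-based. Intervals are exact binomial (Clopper-Pearson) at 95% and cover counting only. Libraries were compared by exact two-sided permutation tests of 2 against 2, which cannot go below 0.33. Sites named are the 5 strongest, 5 typical and 5 weakest by mean percentile and 2 on either side of the limit, passing over chromosome 18. The members, lists and this rule were chosen with earlier results of these data known. Planned motif and gene analyses need sequence and genes of mm9, which were not used here, so no gene is assigned. Joining, step and distances were tested on simulated data. Python 3.11.15, NumPy 2.4.6, SciPy 1.17.1 and matplotlib 3.10.9 were used. Alternatives were other windows, limits, flanks and list lengths, a floor of 8 tags after scaling to the shallowest library, a minimum signal, autosomes only, flanks without peaks of overexpression-only sites and each library left out.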

Additional observations from a re-analysis of the deposited data

Results flagged for a closer look

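AAV_Cebpa replicate 2 called 14647 sites that none of the other 7 lists held, against 2255 and 3557 such sites in the AAV_Null lists and 1687 in AAV_Cebpa replicate 1. They had a median percentile of 16.4 in that list, and 29.0% of them (95% exact binomial interval 28.3% to 29.7%) had a site called in all the lists within 10000 bp. They count among all sites and in the shares of that library given above, but were not compared as a set. The list is the longest (80394 peaks) and its library the deepest, and the part of depth in this number was not tested.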

How the results depend on the processing

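Recomputing gave 123 values, of which 90 were counted as unchanged, 31 as moved and 2 as turned in sign. A difference in flanking peaks was counted as unchanged if it kept its sign, whatever its size. A share was counted so if it lay inside the interval of the reported value. For the number of weaker sites the margin was wide, and 7247 with a signal of at least 10 was counted as unchanged. The number of weaker sites was 5415 with lists of equal length and 15180 with floxed lists not used, and 10084 to 20634 with 1 library left out, the highest without AAV_Cebpa replicate 1. The percent within 10000 bp of a constitutive site was 23.1 when both percentiles had to be below 50, 24.6 and 28.9 with limits of 40 and 60, 35.1 with lists of equal length, 29.5 with tags scaled to the shallowest library (floor of 8 tags), 31.4 with a signal of at least 10, 31.5 against sites of all 4 control lists, 28.3 with floxed lists not used, 31.4 with AAV_Cebpa replicate 2 cut to 59564 peaks, and 25.5 to 28.6 with 1 library left out. All sites had 38.3% to 41.3% under those settings that rebuilt the sites. In the same order where it moved, the percent on X was 5.73 (both below 50), 3.01 (equal length), 4.53 (scaled tags), 3.38 (signal of at least 10), 4.37 (floxed lists not used) and 4.07 (replicate 2 cut), with 4.85 to 5.52 for 1 library left out. The percent of centres within 25 bp was 66.8 with windows of 100 bp, 63.5 (both below 50), 64.2 and 67.2 (limits of 40 and 60), 74.3 (equal length), 68.1 (scaled tags), 74.0 (signal of at least 10), 67.7 (floxed lists not used), 68.6 (replicate 2 cut) and 65.8 to 66.2 for 1 library left out. The difference in flanking peaks between AAV_Cebpa and AAV_Null was positive throughout (1.92 to 22.4 points), in part by the selection where all peaks were counted. That between Trib1_LSKO and Trib1_WT ran from -0.26 to 0.39 with 1 library left out, -0.07 without Trib1_WT replicate 1. The causes of these moves were not tested beyond the construction of each setting.

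A replicate block within same-numbered pairs gave 9833 sites and differences of 7.20 and 0.13 by construction. Replicate differences in percentile correlated at -0.02 over 27702 sites between AAV_Cebpa and AAV_Null and at 0.14 over 34866 sites between the floxed groups, and the labels give no shared source. Not using floxed lists, the cut of replicate 2 and the flanks without overexpression-only peaks were chosen after seeing the data. Motif, gene start and per-megabase chromosome alternatives were not run.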

Other observations

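Sites called in a single list carried different shares of chromosome X. The share was 5.81% (95% exact binomial interval 4.74% to 7.03%) of 1687 sites for AAV_Cebpa replicate 1 and 4.998% (4.65% to 5.36%) of 14647 for replicate 2. It was 3.41% and 3.46% for the AAV_Null lists and 1.53% to 2.32% for the 4 floxed lists. The weak sites found in both AAV_Null lists and no other list had 3.12% (2.10% to 4.46%) on X, 29 of 928, and those of Trib1_WT 2.10% (1.30% to 3.19%), 21 of 1001.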
